A study of Mus musculus with 34 samples.

Results

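Liver of SIRT1intKO mice was compared between 24 h and 6 h after partial hepatectomy (PHx), the surgical removal of most of the liver, by bulk RNA-seq. The libraries were chosen by their labels, 7 at 24 h and 5 at 6 h, which are 12 of the 34 libraries of the series. SIRT1 is an NAD-dependent protein deacetylase. SIRT1intKO mice carried a Cre recombinase under the Villin promoter, which is active in the intestinal epithelium, together with loxP-flanked Sirt1 alleles, so the deletion lies in the gut and not in the tissue that was sequenced. WT controls carried the loxP-flanked alleles without the Cre, and their 6 libraries at 6 h and 4 at 24 h are given beside the SIRT1intKO values. All were young adult male mice of C57/Bl6 background, and every library compared here came from an operated animal. Livers taken before surgery were in no comparison, but entered the fit through its gene filter, its scaling and its estimate of the spread. The time of day of surgery and of sampling was not given in the sources used here, and its part in the differences was not tested. The labels mark the libraries of a group as biological replicates, numbered separately for each genotype and time.

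After PHx the remaining liver regrows mainly by division of its existing hepatocytes. In a priming phase immediate-early genes and cytokine signals of the IL6 family carry hepatocytes out of quiescence, and growth factors that act through EGFR and MET then take them into the cell cycle. Meanwhile, the liver has to keep up ammonia disposal, glucose output, bile formation and plasma protein secretion, and leukocytes can enter the tissue from the blood.

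The 12 libraries held between 15041590 and 23480492 assigned counts, and levels are given as CPM, the usual measure of a gene's counts relative to the depth of its library, here with TMM-scaled library sizes. On the first principal component of the 12 SIRT1intKO libraries, with 38% of the variance, the 6 h libraries lay between 32.14 and 62.6 and 6 of the 24 h libraries between -72.55 and -31.21. The 24 h replicate 5 stood apart at 20.55, nearer to the 6 h libraries, and results are given with and without it where it matters. In WT liver the 24 h libraries were themselves split, with replicates 3 and 4 on the side of the 6 h libraries. No gene was used to check the labels of these 3 libraries, which were kept as given. Every WT value between the times therefore rests on a divided group of 4. Single genes in the SIRT1intKO 24 h replicate 5 lay either way. Cyp8b1 fell within the 6 h range, and Ciart lay outside it with the other 24 h libraries. Hepatic Sirt1 (ENSMUSG00000020063) is no check of an intestinal deletion and did not pass the test between the times (log2 fold change -0.25, SE 0.21, adjusted p = 0.383, edgeR). The 12 hepatocyte markers, albumin and apolipoprotein genes among them, summed to between 91100 and 104000 CPM at 6 h and between 70170 and 121300 CPM at 24 h, far above the markers of any other cell type.

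Between 6 h and 24 h, SIRT1intKO liver gained transcripts of infiltrating myeloid cells, chemokines, matrix proteins, glutathione transferases and cholesterol synthesis enzymes. It lost transcripts of amino acid breakdown, the urea cycle, pericentral enzymes and several clock repressors. Of 14980 genes tested, 1588 were called (10.6%), that is, they had an adjusted p under 0.05 in edgeR's quasi-likelihood test and changed by more than 1 on the log2 scale. Of these, 1003 rose (6.7% of the genes tested) and 585 fell (3.91%), while the median log2 fold change of all tested genes was -0.0084. The list counts below are to be read beside these shares. Without replicate 5, 1899 genes were called, among them 1527 of the 1588.

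WT liver had 1073 called genes over the same interval (7.16%), 665 higher (4.44%) and 408 lower (2.72%). Its count dropped to 661 when WT 24 h replicate 1 was left out. Of the genes called in SIRT1intKO liver, 458 were called in WT liver in the same direction, 280 of them higher and 178 lower, and 0 in the opposite direction. The difference between the genotypes was tested as an interaction term, which called 50 genes (0.334%). This last count was unstable, since it became 419 without SIRT1intKO 24 h replicate 5, 4 without SIRT1intKO 24 h replicate 6, 1 without WT 24 h replicate 2 and 0 without WT 6 h replicate 6. A larger count in one genotype is therefore not a tested difference between them, and WT values below serve as a side-by-side reading.

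**Figure D1:**
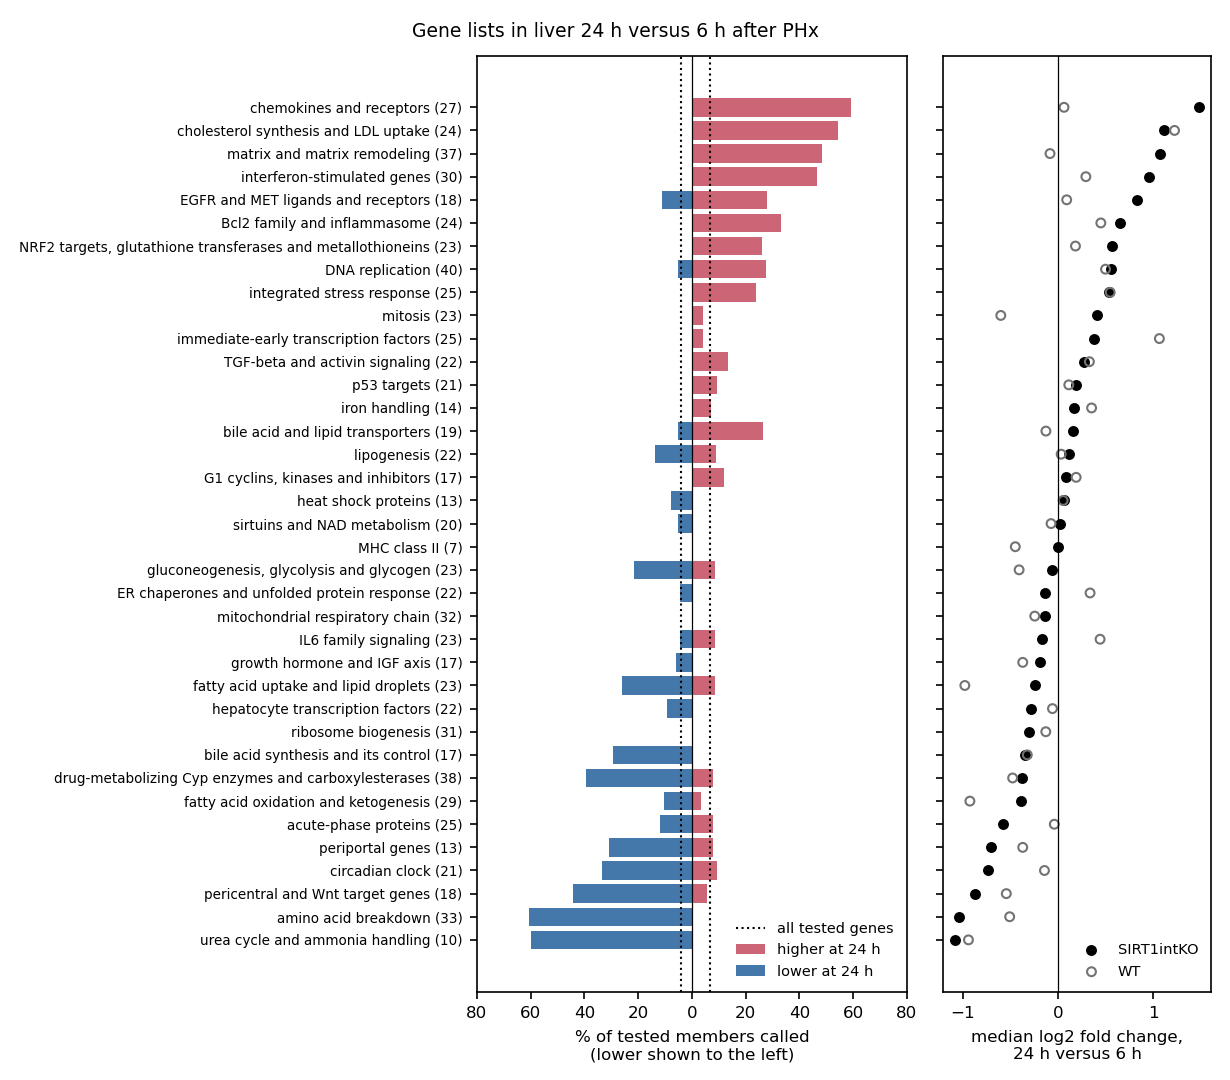
Share of each gene list's tested members (number in brackets) that was called higher (right, red) or lower (left, blue) in SIRT1intKO liver at 24 h versus 6 h, with the shares over all tested genes as dotted lines, and the median log2 fold change of each list in SIRT1intKO (filled) and WT (open) liver. Chemokines, cholesterol synthesis, matrix and interferon-stimulated genes lie farthest to the right, and amino acid breakdown and the urea cycle farthest to the left.

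Among non-overlapping genes that averaged at least 5 CPM at 24 h, the 10 highest gains were in Chil3, Clec4e, Ccl2, Sprr1a, S100a8, Gsta13, S100a9, Gsta1, S100a4 and Fpr2, from 81.1-fold down to 18.3-fold. S100a8 and S100a9 form a heterodimer of neutrophils and monocytes, and Fpr2 is a formyl peptide receptor of the same cells. Without replicate 2 at 24 h the log2 fold changes of S100a9, S100a4 and Fpr2 went from 4.50, 4.29 and 4.19 to 3.15, 3.48 and 3.16. Chil3 (ENSMUSG00000040809), a chitinase-like protein of alternatively activated and inflammatory macrophages, was at 1.03, 0.845, 0.0629, 0.850 and 0.839 CPM in the 6 h replicates 1 to 5 and between 5.40 and 140 CPM at 24 h, with a median of 51.4. Every 24 h library exceeded every 6 h library, and replicate 5 was the lowest at 24 h. The gain was 81.1-fold (log2 fold change 6.34, SE 0.81, adjusted p = 2.11e-06). WT liver gained 19.6-fold (adjusted p = 0.000234), and the difference between the genotypes did not pass (adjusted p = 0.289).

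Ccl2 (ENSMUSG00000035385), the chemokine that recruits CCR2-positive monocytes, was at 0.321, 0.563, 0.566, 0.910 and 0.419 CPM at 6 h and between 1.88 and 103 CPM at 24 h, with a median of 13.9. Replicate 2 was far above the other 24 h libraries and replicate 5 was the lowest, with no overlap between the times. Ccl2 rose 47.4-fold (log2 fold change 5.57, SE 0.86, adjusted p = 2.82e-05), and by 4.67 on the log2 scale without replicate 2. In WT liver its log2 fold change was 1.88 (adjusted p = 0.128). S100a8 (ENSMUSG00000056054), a calcium-binding protein abundant in neutrophils, was at 2.89, 2.75, 3.58, 4.19 and 1.62 CPM at 6 h and between 5.07 and 375 CPM at 24 h, with a median of 29.7. Again every 24 h library was higher, replicate 2 by far the most. The log2 fold change of 4.73 (SE 0.94, adjusted p = 0.000446) became 3.38 without replicate 2. Clec4e (ENSMUSG00000030142), a C-type lectin receptor of macrophages, was at 0.0641, 0, 0.252, 0.182 and 0.180 CPM at 6 h and between 0.516 and 24.0 CPM at 24 h, with a median of 3.99. Its groups did not overlap either, and it rose 49.6-fold (log2 fold change 5.63, adjusted p = 5.89e-05), and by 4.96 on the log2 scale without replicate 2.

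Of 27 tested chemokines and chemokine receptors, 16 rose and 0 fell, with a median log2 fold change of 1.48. The 16 included the monocyte attractants Ccl2 and Ccl7 (5.00), the neutrophil attractants Cxcl2 (3.92) and Cxcl5 (3.47), the receptors Ccr1 (3.71), Ccr2 (3.23) and Cxcr2 (2.13), the T cell attractants Ccl5 (2.74) and Cxcl10, and the eosinophil attractant Ccl11 (4.37). Cxcl1, another neutrophil attractant, did not pass (0.28, adjusted p = 0.80). In WT liver 4 of the 27 rose, Ccr1, Ccr2, Cxcl2 and Cxcl14, and the median was 0.062. No member of the list was called in the interaction. An unadjusted p under 0.05 was found there for 14 of the 27, against 2952 of all 14980 tested genes (19.7%). Without replicate 5 the SIRT1intKO count was 17.

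Cxcl10 (ENSMUSG00000034855), which interferons induce, was at 0.641, 4.51, 5.35, 0.850 and 2.22 CPM at 6 h and between 4.50 and 197 CPM at 24 h, with a median of 24.6. Replicate 5 alone among the 24 h libraries fell within the 6 h range. The gene rose 18.2-fold (log2 fold change 4.19, SE 0.76, adjusted p = 0.000168), and by 3.21 on the log2 scale without replicate 2. Of 30 interferon-stimulated genes tested, 14 rose and 0 fell, with a median log2 fold change of 0.954, while WT liver had 5 that rose and a median of 0.291. The guanylate-binding proteins Gbp6 (2.92), Gbp5 (2.46), Gbp2 (1.84) and Gbp3 (1.01), the ubiquitin-like modifier Isg15 (1.22) and its protease Usp18 (1.42), and the antiviral Rsad2 (1.13) were among them. Gbp6 (ENSMUSG00000104713) was at 1.67, 2.61, 1.01, 3.64 and 0.958 CPM at 6 h and between 3.83 and 48.9 CPM at 24 h, with a median of 6.74, without overlap, and its log2 fold change was 2.26 without replicate 2. The call of Gbp3 was lost without the 24 h replicate 2, 4, 6 or 7 and without the 6 h replicate 3 or 5, where its log2 fold change was as low as 0.77. The number of interferon-stimulated genes that rose was 9 without replicate 2, where Isg15 lost its call (0.80, adjusted p = 0.0689), and 16 without replicate 5.

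Of 24 genes of the Bcl2 family and the inflammasome, 8 rose and 0 fell. They were Il1b (2.66, adjusted p = 0.0086), the sensor Nlrp3 (1.78, adjusted p = 0.0086), the adaptor Pycard (1.98, adjusted p = 0.00058), the apoptosis regulators Bcl2 (1.27), Bcl2a1b (2.77), Bid (1.41) and Bbc3 (1.15) and the necroptosis effector Mlkl (1.06), whose call was lost without the 6 h replicate 1. Bcl2a1b stood at 1.56 without the 24 h replicate 2. It belongs to a family of near-identical copies, so its own share of the reads is uncertain. Of the 7 MHC class II genes, which antigen-presenting cells express, 0 were called.

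Marker genes of blood and liver cell types were summed in each library to set these gains beside cell content. The 10 neutrophil markers summed to between 10.5 and 18.6 CPM at 6 h and between 24.7 and 983 CPM at 24 h, with a median of 105. The groups did not overlap (9.23-fold, adjusted p = 0.0109, exact two-sided permutation test over all assignments of the libraries to the times). S100a8 and S100a9 made up most of this sum, and averaged as log2 levels the same markers gave a difference of 1.68 (adjusted p = 0.0164, same exact test). Monocyte and infiltrating macrophage markers rose 3.86-fold (adjusted p = 0.0109, same exact test), from between 38.0 and 54.3 CPM to between 67.6 and 437 CPM, and differed by 1.42 (adjusted p = 0.0164, same exact test) as averaged log2 levels. Among single markers, 7 of 8 tested for neutrophils and 9 of 11 tested for monocytes rose, Ly6c2 (3.03), Lyz2 (1.96) and Cd68 (1.92) among the latter. Lyz2 was also called in the interaction (2.47, adjusted p = 0.0297), with -0.51 in WT liver, but no gene was called there without WT 6 h replicate 6. The summed Kupffer cell markers did not pass the exact test (log2 difference 0.413, adjusted p = 0.277), and Clec4f, which defines resident Kupffer cells, had a log2 fold change of -0.76. Of 10 Kupffer markers only Marco, a scavenger receptor, was called (2.95). In bulk tissue, more cells of a type and more RNA per cell cannot be told apart. The part of leukocyte content in the chemokine, interferon, Bcl2 family and inflammasome gains was not tested. In WT liver the summed neutrophil markers had medians of 16.2 CPM at 6 h and 64.7 CPM at 24 h. The WT medians of the summed monocyte markers were 72.4 and 75.1 CPM. For both sums the WT ranges of the times overlapped, and no test was made on them.

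**Figure D2:**
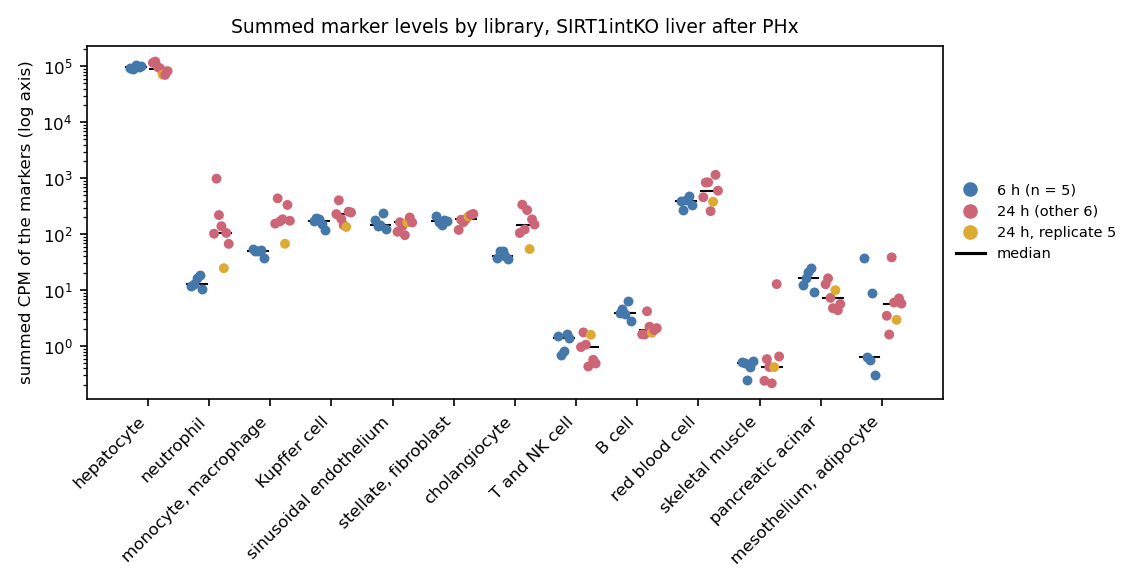
Summed CPM of the markers of each cell type in each SIRT1intKO library (log axis) at 6 h (blue), at 24 h (red) and in 24 h replicate 5 (yellow), with the group median as a line. Neutrophil, monocyte and cholangiocyte sums separate the times, and hepatocyte sums overlap.

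T and NK cell markers were near 0, and 3 of 10 could be tested. B cell markers summed to a log2 difference of -0.992 (adjusted p = 0.0328, exact permutation test), but leaving out libraries in turn raised the adjusted p to as much as 0.0788. Stellate cell (log2 difference 0.082, adjusted p = 0.681), sinusoidal endothelial (-0.164, adjusted p = 0.588) and red blood cell markers (0.648, adjusted p = 0.224) did not pass the exact test. Acinar (-1.03, adjusted p = 0.0985) and mesothelium and adipocyte markers (1.44, adjusted p = 0.488) did not pass it either. The summed muscle markers reached 12.9 CPM in the 24 h replicate 6 alone.

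Genes of the extracellular matrix rose. Of 37 tested members of the matrix and matrix remodeling list, 18 rose and 0 fell, with a median log2 fold change of 1.07, against 6 higher and 1 lower and a median of -0.085 in WT liver. Collagen chains (Col1a1 1.61, Col1a2 1.26, Col5a1 1.55, Col5a2 1.08), the crosslinking enzymes Lox (2.68), Loxl1 (1.35) and Loxl2 (1.07), tenascin C (Tnc 1.95) and the metalloproteinases Mmp2 (1.16), Mmp8 (3.12), Mmp9 (2.42) and Mmp12 were among the 18. Col1a1 lost its call without 24 h replicate 7 (adjusted p = 0.0621), without 6 h replicate 2 (0.0505) and without 6 h replicate 4 (0.0562), and Loxl2 without 24 h replicate 6 or 7. The summed stellate cell and fibroblast markers did not pass their test, while those of neutrophils and monocytes did, and the part of either in the matrix gains was not tested. Timp1 (ENSMUSG00000001131), an inhibitor of metalloproteinases, was at 2.31, 0.916, 0.692, 2.67 and 2.28 CPM at 6 h and between 4.50 and 26.8 CPM at 24 h, with a median of 12.7. Its groups did not overlap (7.28-fold, log2 fold change 2.86, SE 0.58, adjusted p = 0.000513), and it rose in WT liver too (3.42-fold, adjusted p = 0.030).

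Col3a1 (ENSMUSG00000026043), a fibrillar collagen of activated stellate cells and fibroblasts, was at 31.7, 12.7, 16.3, 14.9 and 23.2 CPM at 6 h and between 21.01 and 161 CPM at 24 h, with a median of 66.8. Only replicate 1 at 24 h fell within the range of the 6 h libraries. It rose 3.82-fold (log2 fold change 1.93, SE 0.49, adjusted p = 0.00397), while WT liver gave -0.11 (adjusted p = 0.906) and the difference between the genotypes had an adjusted p of 0.115. Mmp12 (ENSMUSG00000049723), the macrophage elastase, was at 0.257, 0.141, 0.377, 0.243 and 0.719 CPM at 6 h and between 0.723 and 6.75 CPM at 24 h, with a median of 1.41. These groups just did not overlap, and replicate 6 was the highest. The log2 fold change of 2.53 (SE 0.62, adjusted p = 0.00289) became 1.87 without replicate 6.

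Markers of bile duct cells rose in sum. The 8 cholangiocyte markers summed to between 36.8 and 49.7 CPM at 6 h and between 54.3 and 337 CPM at 24 h, 3.55-fold higher without overlap (adjusted p = 0.0109, exact permutation test). Spp1, which macrophages also express, made up most of the sum, with a mean of 29.1 CPM at 6 h and 143 CPM at 24 h, and averaged as log2 levels the markers differed by 0.758 (adjusted p = 0.0328, same exact test). Sox9 and Spp1 (2.29) were among the markers that rose, while Epcam, a defining marker, had a log2 fold change of 0.41 and Krt19 of 1.31, neither called. Sox9 (ENSMUSG00000000567), a transcription factor of duct cells and of periportal hepatocytes, was at 6.99, 10.99, 9.81, 5.04 and 4.31 CPM at 6 h and between 9.15 and 44.1 CPM at 24 h, with a median of 16.3. It overlapped in replicate 5. It rose 2.64-fold (log2 fold change 1.40, SE 0.45, adjusted p = 0.0212), a call lost without 24 h replicate 4 (adjusted p = 0.0648), without 6 h replicate 4 (0.0588) and without 6 h replicate 5 (0.0602). In WT liver it rose 10.2-fold (adjusted p = 3.03e-05). The summed cholangiocyte markers of WT liver had medians of 47.3 CPM at 6 h and 173 CPM at 24 h, with overlapping ranges, and were not tested.

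**Figure D3:**
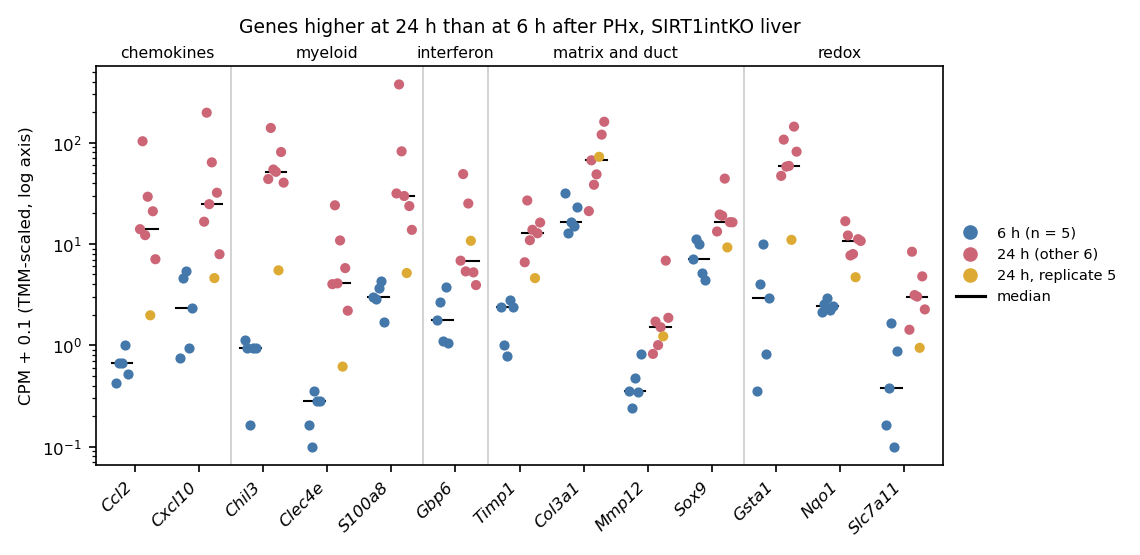
CPM plus 0.1 (log axis) of inflammatory, matrix and redox genes in the SIRT1intKO libraries at 6 h (blue, n = 5), the other 24 h libraries (red) and 24 h replicate 5 (yellow), with the median as a line. Chil3, Ccl2, S100a8 and Gsta1, chosen among genes without overlap, lie higher in every 24 h library than in any at 6 h.

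Genes for the detoxification of electrophiles rose. Gsta1 (ENSMUSG00000074183), an alpha-class glutathione transferase, was at 0.257, 3.94, 9.999, 0.728 and 2.82 CPM at 6 h and between 10.9 and 144 CPM at 24 h, with a median of 58.9. Every 24 h library was higher, and the 6 h replicates 2 and 3 stood above the other 6 h libraries. The gain was 20.4-fold (log2 fold change 4.35, SE 0.69, adjusted p = 3.89e-05), and 5.23 on the log2 scale without 6 h replicate 3. Its near-identical neighbour Gsta13 (4.53, and 5.55 without 6 h replicate 3) can share reads with it, so the split between them is uncertain. Nqo1 (ENSMUSG00000003849), a quinone reductase and a classical NRF2 target, was at 2.05, 2.46, 2.83, 2.12 and 2.34 CPM at 6 h and between 4.60 and 16.7 CPM at 24 h, with a median of 10.6. It rose 4.25-fold without overlap (log2 fold change 2.09, SE 0.26, adjusted p = 1.35e-06) and 2.32-fold in WT liver (adjusted p = 0.00252).

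Of the 23 genes of this list, 6 rose and 0 fell, Gstm3 (3.07), Gsta4 (1.75), Gstm2 (1.71) and Cbr3 (1.30) being the others. The call of Cbr3 was lost without the 24 h replicate 1 (adjusted p = 0.0741) and without the 6 h replicate 2, 4 or 5. Hmox1, the heme oxygenase that NRF2 also controls, did not pass (0.58, adjusted p = 0.36), nor did the metallothionein Mt1 (-0.20, adjusted p = 0.86). Among the integrated stress response genes, 6 of 25 rose and 0 fell. Slc7a11 (ENSMUSG00000027737), the cystine importer that feeds glutathione synthesis, was at 0.0641, 0.282, 1.57, 0 and 0.779 CPM at 6 h and between 0.845 and 8.29 CPM at 24 h, with a median of 2.93. The 6 h replicate 3 reached into the 24 h range. It rose 6.03-fold (log2 fold change 2.59, adjusted p = 0.0148), and by 3.51 on the log2 scale without that library. Nupr1 (2.30) and Trib3 (1.68) also rose, whereas Atf4 (-0.02) and Asns (0.54) did not pass. The count of 6 fell to 3 without 24 h replicate 2, without 6 h replicate 2 and without 6 h replicate 4. Genes of the unfolded protein response did not join them, with 0 of 22 higher and Hspa5 at -0.16 (adjusted p = 0.67).

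Egfr fell, and its ligands Ereg and Tgfa rose. Egfr (ENSMUSG00000020122), the receptor for EGF-family ligands, was at 774, 722, 697, 854 and 663 CPM at 6 h and between 141 and 396 CPM at 24 h, with a median of 262. No library overlapped, and the fall was 2.59-fold (log2 fold change -1.37, SE 0.23, adjusted p = 6.69e-05). WT liver gave -0.59 (adjusted p = 0.117). Ereg (ENSMUSG00000029377), an EGFR ligand, was at 0.192, 0.845, 0.252, 0.182 and 0.299 CPM at 6 h and between 0.361 and 6.13 CPM at 24 h, with a median of 1.602. The 6 h replicate 2 overlapped with the 24 h range, and Ereg rose 6.95-fold (adjusted p = 0.00261). Tgfa, another EGFR ligand, rose as well (1.31, adjusted p = 0.00012), as did Nrg1 (1.99) and the urokinase pair Plau (1.72) and Plaur (1.61). The list of EGFR and MET ligands and receptors also held Nrg1 and the urokinase pair. Of its 18 genes, 5 rose and 2 fell. The number that rose was 3 without the 6 h replicate 5 and 7 without the 24 h replicate 5. Areg (1.62, adjusted p = 0.12) and Met (-0.12, adjusted p = 0.63) did not pass, and Hgf had an adjusted p of 0.021 below the fold threshold (0.94). Hgf was above the threshold without the 24 h replicate 5 (1.07, adjusted p = 0.00509).

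Among IL6 family genes, Lifr (ENSMUSG00000054263), a receptor chain for LIF and related cytokines, was at 152, 129, 195, 162 and 152 CPM at 6 h and between 35.95 and 105 CPM at 24 h, with a median of 45.1. It fell 3.02-fold without overlap (log2 fold change -1.60, SE 0.26, adjusted p = 6.23e-05). Its ligand Lif rose (2.39, adjusted p = 0.014), as did Il6 (2.49, adjusted p = 0.0456). The call of Il6 was lost without the 24 h replicate 1, 2, 3, 4 or 7 and without the 6 h replicate 1, 2, 3 or 5, with an adjusted p of up to 0.0986, and its log2 fold change was 3.29 without the 6 h replicate 4. Stat3, the signal transducer, stood at -0.54 (adjusted p = 0.020), short of the fold threshold, and the feedback inhibitor Socs3 did not pass (-0.64, adjusted p = 0.38). In all, 2 of 23 rose (8.7%) and 1 fell (4.3%), close to the shares over all tested genes (6.7% and 3.91%).

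DNA replication genes were called more often than mitotic genes, while most members of both lists had a positive log2 fold change. Of 40 tested replication genes, 11 rose and 2 fell. Their median log2 fold change was 0.55, with 33 positive, and in WT liver 9 rose with a median of 0.497. Mcm5 (ENSMUSG00000005410), a subunit of the replicative helicase, was at 1.15, 0.775, 1.13, 0.728 and 0.779 CPM at 6 h and between 1.36 and 7.09 CPM at 24 h, with a median of 3.39. The groups did not overlap, and replicate 5 was the highest. The rise was 3.63-fold (log2 fold change 1.86, SE 0.38, adjusted p = 0.000586) and 3.26-fold in WT liver (adjusted p = 0.00339). E2f2 (ENSMUSG00000018983), a transcription factor of the G1 to S transition, was at 0.513, 0.352, 0.126, 0.121 and 0.180 CPM at 6 h and between 0.705 and 2.82 CPM at 24 h, with a median of 1.06. It rose 5.80-fold without overlap (adjusted p = 0.000242).

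Also higher were the DNA ligase Lig1 (1.80), the maintenance methylation factor Uhrf1 (2.52), the polymerase alpha genes Pola1 (1.24) and Prim2 (1.01), Mcm6 (1.27), Rrm2 (1.23), Rfc3 (1.12), Chaf1a (1.38) and E2f1 (1.28). Mcm10 (-2.06) and the repressor E2f8 (-1.83) fell. Without replicate 5, 8 rose and 3 fell, and Mcm10 was at -2.90. Cdk1 (0.41, adjusted p = 0.45), Mki67 (0.51, adjusted p = 0.47) and Top2a (1.10, adjusted p = 0.15), which mark cells in S phase to mitosis, did not pass. The 23 mitotic genes had a median log2 fold change of 0.413, with 21 positive, against a median of -0.601 in WT liver. Only 1 of them was called, namely Mad2l1 (ENSMUSG00000029910), a spindle checkpoint protein, which rose. It was at 0.705, 0.845, 1.70, 1.27 and 0.958 CPM at 6 h and between 2.06 and 6.82 CPM at 24 h, with a median of 3.51, without overlap (3.23-fold, adjusted p = 6.61e-05).

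Ccnd1 (ENSMUSG00000070348), the cyclin that drives G1 progression in hepatocytes, was at 19.4, 44.8, 88.9, 33.98 and 48.7 CPM at 6 h and between 64.1 and 159 CPM at 24 h, with a median of 116. The 6 h replicate 3 overlapped with the 24 h range. The rise of 2.45-fold (log2 fold change 1.29, SE 0.47) was close to the threshold (adjusted p = 0.0378), and the adjusted p reached 0.0962 without 6 h replicate 1. The call was also lost without the 6 h replicate 2, 4 or 5 and without the 24 h replicate 3, 6 or 7. The inhibitors Cdkn1a (0.46, adjusted p = 0.31) and Cdkn1b (-0.25, adjusted p = 0.20) did not pass, and Cdkn2b rose (1.55, adjusted p = 0.0365), a call lost without the 24 h replicate 2, 3 or 7 and without the 6 h replicate 1 or 4, with an adjusted p of up to 0.0997.

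E2F factors are known to bind sites related to TTTGGCGC near the starts of replication genes, so the letters TTTGGCGC were looked for on both strands from 250 bases before to 50 bases after each gene's start in RefSeq promoters (GRCm38.p6). They were present in 4 of the 10 raised replication genes with a promoter, in 3 of the 23 others and in 158 of 27025 genes (0.585%). The stretches before the start of Mcm5, Mcm6 and Pola1 are shown 5′ to 3′ along the gene's strand because these genes rose, with the match in capitals. They lie at chr8:75109328-75109399 on the plus strand, at chr1:128359713-128359847 on the minus strand and at chrX:93632254-93632325 on the minus strand. A match describes the letters only and is not evidence of binding.
Mcm5: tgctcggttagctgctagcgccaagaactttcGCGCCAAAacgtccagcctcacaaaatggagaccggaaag
Mcm6: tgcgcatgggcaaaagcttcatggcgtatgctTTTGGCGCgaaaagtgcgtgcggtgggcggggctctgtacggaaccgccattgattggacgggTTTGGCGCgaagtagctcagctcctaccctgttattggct
Pola1: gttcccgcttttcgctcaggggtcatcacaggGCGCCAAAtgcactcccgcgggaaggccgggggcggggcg

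Clock genes changed in both directions. Of 21 tested, 2 rose and 7 fell. Npas2 (ENSMUSG00000026077), an activator of the core loop, was at 0.0641, 0, 0.189, 0.121 and 0.120 CPM at 6 h and between 0.482 and 5.16 CPM at 24 h, with a median of 2.95. No values overlapped, and the 24 h replicate 1 was the lowest of its group. Npas2 rose 28.4-fold (log2 fold change 4.83, SE 0.58, adjusted p = 9.67e-07) and 13.3-fold in WT liver (adjusted p = 4.53e-06). Bmal1 (ENSMUSG00000055116), its partner, was at 6.54, 1.69, 0.943, 6.92 and 3.77 CPM at 6 h and between 2.05 and 20.97 CPM at 24 h, with a median of 8.15. Its groups overlapped, replicate 5 was the highest at 24 h, and the call (1.16, adjusted p = 0.0415) was lost without that replicate (0.79, adjusted p = 0.130). It was lost, too, without the 24 h replicate 4 or 6 and without the 6 h replicate 2, 3 or 5.

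Ciart (ENSMUSG00000038550), a repressor of the core loop, was at 20.1, 22.6, 28.05, 13.9 and 21.98 CPM at 6 h and between 0.0938 and 10.5 CPM at 24 h, with a median of 4.39. The groups did not overlap, and replicate 5 was the lowest. It fell 4.94-fold (log2 fold change -2.31, SE 0.56, adjusted p = 0.00292) and 6.74-fold in WT liver (adjusted p = 0.00673). Dbp (ENSMUSG00000059824), an output factor of the clock, was at 40.9, 34.2, 39.2, 12.2 and 24.8 CPM at 6 h and between 2.16 and 26.7 CPM at 24 h, with a median of 4.61. Only replicate 1 at 24 h lay within the 6 h range. It fell by 2.00 on the log2 scale (SE 0.45, adjusted p = 0.00143), and by 2.75 without replicate 1. The other falls were in Bhlhe41 (-1.92), Per2 (-1.55), Tef (-1.38), Per1 (-1.38) and Cry2 (-1.04), while Nr1d1 did not pass (-0.74, adjusted p = 0.32). Per2 lost its call without the 6 h replicate 2 (-1.20, adjusted p = 0.0582). The time of day of sampling, on which clock genes depend, was not given in the sources used here, and its part in these changes was not tested.

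CLOCK-BMAL1 and NPAS2-BMAL1 dimers are known to bind the E-box CACGTG, which reads the same on both strands. The letters lay in the promoter window of 4 of the 6 fallen clock genes with a promoter, in 1 of the 10 other tested members and in 2187 of 27025 genes (8.09%). The stretches are shown 5′ to 3′ along each gene's strand, with the letters in capitals, since these genes fell together. Bhlhe41 lies at chr6:145865536-145865605 on the minus strand, Ciart at chr3:95882235-95882376 on the minus strand, Per1 at chr11:69098751-69098820 on the plus strand and Tef, with 2 start sites, at chr15:81802514-81802583 and chr15:81811244-81811313 on the plus strand.
Bhlhe41: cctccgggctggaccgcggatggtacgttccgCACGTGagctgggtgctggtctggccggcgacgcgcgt
Ciart: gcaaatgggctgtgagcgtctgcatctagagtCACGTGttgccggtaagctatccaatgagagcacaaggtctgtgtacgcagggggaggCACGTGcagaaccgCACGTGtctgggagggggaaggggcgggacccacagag
Per1: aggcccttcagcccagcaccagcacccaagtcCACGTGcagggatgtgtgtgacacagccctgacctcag
Tef, first start: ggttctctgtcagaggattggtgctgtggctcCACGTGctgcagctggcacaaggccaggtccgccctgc
Tef, other start: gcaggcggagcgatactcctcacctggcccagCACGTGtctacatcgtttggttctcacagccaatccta

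**Figure D4:**
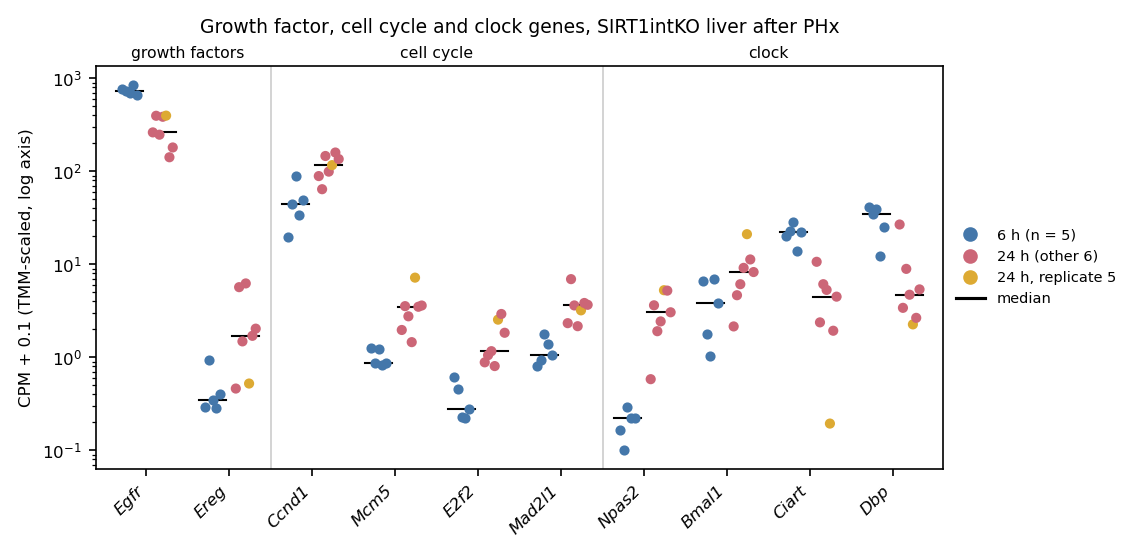
CPM plus 0.1 (log axis) of growth factor, cell cycle and clock genes in the SIRT1intKO libraries at 6 h (blue, n = 5), the other 24 h libraries (red) and 24 h replicate 5 (yellow), with the median as a line. Mcm5, Npas2 and Ciart separate the times, and Bmal1 and Ccnd1 overlap.

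Hepatocyte genes of several metabolic pathways fell, while the summed hepatocyte markers did not pass their test (log2 difference -0.101, adjusted p = 0.588, exact permutation test). Averaged as log2 levels, the same markers gave -0.413 (adjusted p = 0.093, same exact test). Amino acid breakdown gave the largest count, 20 of 33 genes lower and 0 higher with a median log2 fold change of -1.035, against 8 lower and -0.508 in WT liver. Without replicate 5 it was 21 lower. Sds (ENSMUSG00000029597), serine dehydratase, was at 806, 379, 377, 754 and 854 CPM at 6 h and between 46.2 and 241 CPM at 24 h, with a median of 91.2. The groups were apart, with replicate 5 the highest at 24 h, and the fall was 6.35-fold (log2 fold change -2.67, SE 0.36, adjusted p = 4.51e-06). Sds fell 2.56-fold in WT liver (adjusted p = 0.0196).

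The other falls included the lysine enzyme Aass (-2.56), the aminotransferases Got1 (-2.37) and Tat (-1.28), methionine adenosyltransferase Mat1a (-2.14), the tyrosine enzymes Hpd (-1.89), Hgd (-1.30) and Fah (-1.12), and the tryptophan enzymes Tdo2 (-1.77), Afmid (-2.01), Kmo (-1.10) and Haao (-1.16). Gls2 (-1.82), the liver glutaminase, and the proline enzyme Prodh (-1.04) fell too. Ammonia disposal moved with them, as 6 of 10 urea cycle and ammonia genes fell and 0 rose (median -1.08, and 5 lower in WT liver with a median of -0.94). These were Asl (-1.87), Cps1 (-1.15), Otc (-1.01), the ornithine carrier Slc25a15 (-1.17), the ammonium transporter Rhbg (-1.30) and Glul. The fold of Otc was at the threshold, and its call was lost with DESeq2 (-0.99), without the 24 h replicate 6 or 7 and without the 6 h replicate 3, 4 or 5, while Cps1 lost its call without the 6 h replicate 1 (-0.98). Arg1 (-0.63, adjusted p = 0.030) and Ass1 (-0.96, adjusted p = 0.0092) missed the fold threshold. Ass1 passed it without the 24 h replicate 5 (-1.07, adjusted p = 0.00459).

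Glul (ENSMUSG00000026473), glutamine synthetase of the cells around the central vein, was at 578, 620, 589, 1120 and 619 CPM at 6 h and between 40.2 and 274 CPM at 24 h, with a median of 85.0. The groups did not overlap, replicate 5 being the highest at 24 h and replicate 4 the highest at 6 h. It fell 6.40-fold (log2 fold change -2.68, SE 0.39, adjusted p = 1.51e-05) and 3.38-fold in WT liver (adjusted p = 0.0079). Cyp2e1 (ENSMUSG00000025479), an ethanol-oxidizing P450 of the same zone, was at 4149, 3262, 3140, 4349 and 2457 CPM at 6 h and between 293 and 1587 CPM at 24 h, with a median of 724. It fell 4.22-fold without overlap (adjusted p = 8.32e-05). Of 18 pericentral and Wnt target genes, 8 fell and 1 rose, and 11 fell without replicate 5. The Wnt target Axin2 (-0.41, adjusted p = 0.51) and the Wnt pathway receptor Lgr5 (0.82, adjusted p = 0.20) did not pass. Axin2 was called as lower without the 24 h replicate 5 (-1.01, adjusted p = 0.0465). Of 13 periportal genes 4 fell, Sds, Gls2, Cyp2f2 (-1.81) and Cps1, so falls were counted in both zones.

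Of 38 drug-metabolizing P450 enzymes and carboxylesterases, 15 fell and 3 rose. Ces1d (ENSMUSG00000056973), a lipid hydrolase, was at 54.2, 66.6, 99.6, 209 and 60.9 CPM at 6 h and between 4.11 and 52.0 CPM at 24 h, with a median of 11.6. The highest 24 h value, of replicate 5, came close to the lowest at 6 h, and the log2 fold change of -2.60 (adjusted p = 0.0021) became -3.28 without it. The 3 that rose were Cyp2c39 (1.86), Ces2c (1.39) and Cyp3a11 (1.00). Their number was 1 without the 24 h replicate 1 or 4 and without the 6 h replicate 1, 2 or 5. Cyp2c and Ces1 genes lie in clusters of similar sequence, so reads may be split between neighbours.

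Among non-overlapping genes that averaged at least 5 CPM at 6 h, the largest fall was in Car3 (ENSMUSG00000027559), carbonic anhydrase III, at 167, 146, 424, 1282 and 298 CPM at 6 h and between 2.02 and 36.9 CPM at 24 h, with a median of 23.5. The groups did not overlap, and the 6 h replicate 4 was far above the rest. It fell 21.1-fold (log2 fold change -4.40, SE 0.74, adjusted p = 7.71e-05), and by 3.54 on the log2 scale without that replicate. Serpina6 (ENSMUSG00000060807), the corticosteroid-binding globulin of plasma, was at 38.7, 52.0, 62.4, 72.9 and 70.4 CPM at 6 h and between 0.686 and 22.3 CPM at 24 h, with a median of 1.25. Replicate 5 at 22.3 CPM was apart from the other 24 h libraries, and the log2 fold change of -3.72 (adjusted p = 0.000161) became -5.33 without it. WT liver gave -0.76 (adjusted p = 0.501). Selenbp2 (ENSMUSG00000068877), a selenium-binding protein, was at 318, 607, 886, 924 and 720 CPM at 6 h and between 10.9 and 158 CPM at 24 h, with a median of 15.4 and with replicates 1 and 5 above the rest. It fell 12.8-fold without overlap (adjusted p = 0.000175), but its near-identical relative Selenbp1 may share its reads.

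Sult2a8 (-3.35), a bile acid sulfotransferase, the amine methyltransferase Inmt (-3.19), Serpina3c (-3.72) and Cyp7b1 (-2.64), the oxysterol hydroxylase of bile acid synthesis, were also among the 10 largest falls of that kind. Serpina3c stood at -2.51 without the 6 h replicate 4, and Cyp7b1 at -3.34 without the 24 h replicate 5. Fabp5 (ENSMUSG00000027533), a fatty acid-binding protein, was at 70.6, 46.7, 140, 182 and 204 CPM at 6 h and between 9.21 and 23.1 CPM at 24 h, with a median of 20.5, a 7.15-fold fall without overlap (adjusted p = 2.33e-06). Of 29 fatty acid oxidation and ketogenesis genes 3 fell and 1 rose, against 7 lower in WT liver, and the WT median was -0.925 against -0.385. Cpt1a, the mitochondrial entry enzyme, had -0.67 (adjusted p = 0.0034) and was not called, whereas in WT liver it fell (-1.39).

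Fgf21 (ENSMUSG00000030827), a fasting and stress hormone, was the 1 member of that list that rose. It was at 4.43, 3.73, 0.755, 0.789 and 9.88 CPM at 6 h and between 2.16 and 32.4 CPM at 24 h, with a median of 16.5, and the groups overlapped. The log2 fold change was 2.03 (adjusted p = 0.0293), with the call lost without the 24 h replicate 1 or 2 or the 6 h replicate 2, 3 or 4, and the log2 fold change was 2.74 without the 6 h replicate 5. Glucose genes were mixed. G6pc1 (-2.21), the last enzyme of glucose release, Fbp1 (-1.69), Gys2 (-1.64) and Ppp1r3g (-2.63) were among those that fell, and the glycolytic Pkm (1.61) and Hk2 (1.23) rose. Pck1 had -0.83 (adjusted p = 0.012) and was not called. Of 23 glucose genes 5 fell, but 3 without the 6 h replicate 5, where Ppp1r3g lost its call (-1.52, adjusted p = 0.141). G6pc1 stood at -3.07 without the 24 h replicate 5.

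Among hepatocyte transcription factors, 2 of 22 fell, Klf15 (-1.503) and Onecut1 (ENSMUSG00000043013). Onecut1, also known as HNF6, was at 19.4, 3.45, 1.76, 20.5 and 7.13 CPM at 6 h and between 0.587 and 5.58 CPM at 24 h, with a median of 1.11. The 6 h replicates 2 and 3 were low and overlapped with the 24 h range. The log2 fold change was -2.47 (SE 0.56, adjusted p = 0.00164), or -3.07 without the 24 h replicate 5, and WT liver gave 0.33 (adjusted p = 0.749). Hnf4a (-0.62, adjusted p = 0.0045) and Cebpa (-0.82, adjusted p = 0.032) were below the fold threshold, and without replicate 5 the count of the list was 4. Growth hormone receptor Ghr fell (-1.21, adjusted p = 0.00063), and Igf1 had -0.70 (adjusted p = 0.0088).

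**Figure D5:**
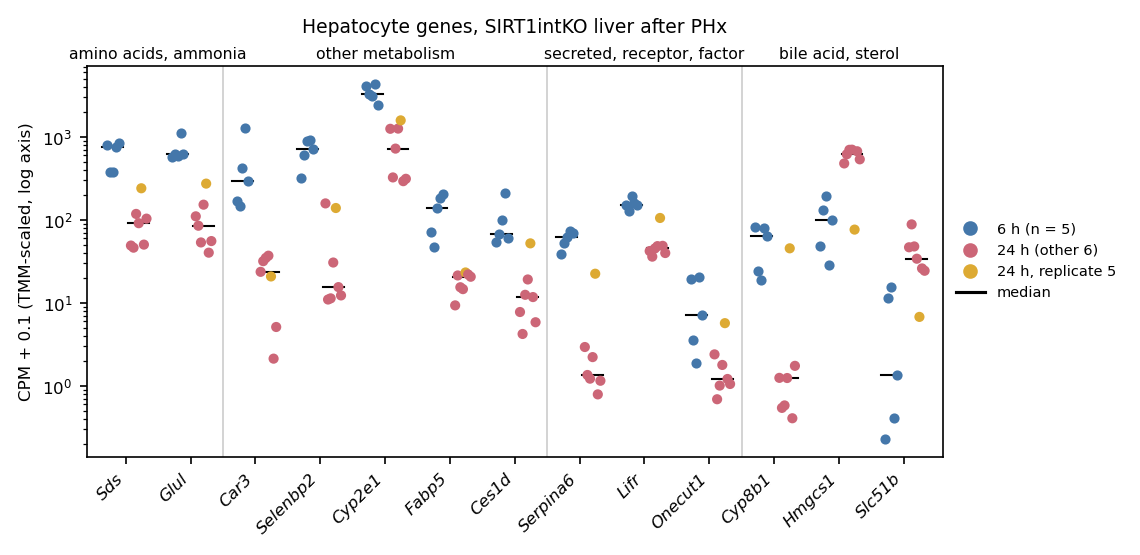
CPM plus 0.1 (log axis) of hepatocyte metabolic, cholesterol and bile acid genes in the SIRT1intKO libraries at 6 h (blue, n = 5), the other 24 h libraries (red) and 24 h replicate 5 (yellow), with the median as a line. Sds, Glul, Car3 and Fabp5, chosen among genes without overlap, are lower in every 24 h library than in any at 6 h. Cyp8b1 in replicate 5, at 45.3 CPM, lies within its 6 h range.

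Cholesterol synthesis rose alike in number in both genotypes, 13 of 24 genes higher and 0 lower in SIRT1intKO liver (median 1.11) and 13 higher and 0 lower in WT liver (median 1.22). No member had an unadjusted interaction p under 0.05, against 19.7% of all tested genes. Hmgcs1 (ENSMUSG00000093930), the HMG-CoA synthase of the mevalonate pathway, was at 48.2, 132, 192, 28.2 and 100 CPM at 6 h and between 76.3 and 703 CPM at 24 h, with a median of 619. Replicate 5, at 76.3 CPM, was the only 24 h library within the 6 h range. Hmgcs1 rose 5.41-fold (log2 fold change 2.43, SE 0.54, adjusted p = 0.00123) and 6.89-fold in WT liver (adjusted p = 0.000806). Mvd (1.92), which makes isopentenyl pyrophosphate, the squalene synthase Fdft1 (1.95) and the sterol demethylase Cyp51 (1.62) rose with it, and 15 of 24 rose without replicate 5. Sqle, the squalene epoxidase, did not pass (0.98, adjusted p = 0.064), but was called without replicate 5 (1.16, adjusted p = 0.0125). In lipogenesis 2 of 22 rose (9.1%, against 6.7% of all tested genes) and 3 fell (13.6%, against 3.91%). Fasn was at 0.53 (adjusted p = 0.27) and Scd1 was lower (-1.17). The call of Scd1 was lost without the 24 h replicate 2, 5, 6 or 7 and without the 6 h replicate 4 or 5, with an adjusted p of up to 0.188.

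Some genes of bile acid synthesis and its control fell, and several transporters rose. Of 17 genes of the synthesis list, 5 fell and 0 rose, with a median log2 fold change of -0.342 and 6 positive values. In WT liver 3 rose and 1 fell (median -0.323), and 1 member was called in the interaction. Cyp8b1 (ENSMUSG00000050445), the 12-alpha-hydroxylase that directs synthesis to cholic acid, was at 82.0, 23.8, 18.6, 78.7 and 64.0 CPM at 6 h and between 0.305 and 45.3 CPM at 24 h, with a median of 1.14. Replicate 5 at 45.3 CPM lay inside the 6 h range and far from the other 24 h libraries. The log2 fold change was -2.88 (SE 0.97, adjusted p = 0.0269) with all libraries and -5.92 (adjusted p = 1.51e-05) without replicate 5. The call was lost without the 24 h replicate 1 or 2 or the 6 h replicate 1 or 4. Cyp7a1, the rate-limiting enzyme, did not pass with all libraries (0.20, adjusted p = 0.92). Without replicate 5 it stood at -3.27 and again did not pass (adjusted p = 0.054). The FXR gene Nr1h4 (-0.56, adjusted p = 0.12) did not pass either. Nor did its target Nr0b2 (0.21, adjusted p = 0.79), which rose in WT liver (2.15). The count of 5 was 3 without the 24 h replicate 1 or 2 and without the 6 h replicate 4.

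Slc51b (ENSMUSG00000053862), a subunit of the basolateral bile acid exporter, was at 0.128, 11.2, 15.3, 0.303 and 1.26 CPM at 6 h and between 6.66 and 88.2 CPM at 24 h, with a median of 33.9. The 6 h replicates 2 and 3 overlapped with the 24 h replicate 5. It rose 6.94-fold (log2 fold change 2.80, SE 0.84, adjusted p = 0.0137), by 3.62 on the log2 scale without the 6 h replicate 3, and 38.2-fold in WT liver (adjusted p = 0.000618), the difference between the genotypes having an adjusted p of 0.273. Abcb1a (1.80), Slco1a4 (1.53), Abcc3 (1.30) and Abcb4 (1.07) rose too, the uptake carrier Slco1a1 fell (-2.34), and the canalicular exporter Abcb11 (0.54) and the uptake carrier Slc10a1 (-0.64) did not pass. Thus 5 of 19 transporters rose and 1 fell, with 3 higher without the 6 h replicate 1 or 5. Abcb1a lost its call without the 6 h replicate 1, 4 or 5, with an adjusted p of up to 0.0663, and stood at 2.59 without the 6 h replicate 3.

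Acute-phase proteins had 2 of 25 higher and 3 lower, and 19 of the 25 had a negative log2 fold change. Among them Saa1 (-0.79, adjusted p = 0.22) and Saa2 (-0.90, adjusted p = 0.26), which are near-identical copies, were not called. Ribosome biogenesis (31 genes) and the mitochondrial respiratory chain (32 genes) had 0 called, heat shock proteins 1 of 13, iron handling 1 of 14, sirtuins and NAD metabolism 1 of 20 and p53 targets 2 of 21. Over all tested genes the share called in either direction was 10.6%. Of 22 genes of TGF-beta and activin signaling, 3 rose and 0 fell. The 1 sirtuin-list call was Nnmt, the nicotinamide methyltransferase, lower (-1.77). Thbs1 (2.68), an activator of latent TGF-beta, and Id1 (1.64) were among the TGF-beta calls.

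Among 25 immediate-early genes, 1 rose in SIRT1intKO liver, Fosl1 (2.08, adjusted p = 0.0254), and its call was lost without the 6 h replicate 1, 4 or 5. Its log2 fold change was 2.74 without the 6 h replicate 3, and 3 genes of the list rose without the 24 h replicate 5. In WT liver 10 rose, and 2 of the 25, Egr1 and Ier2, were called in the interaction. Egr1 (ENSMUSG00000038418), a zinc finger factor induced within minutes of injury, was at 26.04, 191, 233, 39.9 and 47.8 CPM at 6 h and between 23.3 and 126 CPM at 24 h, with a median of 75.2. The groups overlapped (-0.44, adjusted p = 0.582), and in WT liver Egr1 rose (3.29, adjusted p = 0.000557). The difference between the changes was -3.73 on the log2 scale (adjusted p = 0.0351). That call was lost without SIRT1intKO 24 h replicate 2, 6 or 7, SIRT1intKO 6 h replicate 2 or 3, WT 24 h replicate 2 and WT 6 h replicate 5 or 6, with an adjusted p of up to 0.101. Ier2 (ENSMUSG00000053560), another immediate-early gene, was at 27, 58.5, 73.1, 25.9 and 19.2 CPM at 6 h and between 17.1 and 44.7 CPM at 24 h, with a median of 29.5, again overlapping. Its interaction was -2.32 (adjusted p = 0.0318), and -1.6004 (adjusted p = 0.0934) without WT 24 h replicate 2. The call was lost as well without SIRT1intKO 24 h replicate 6 or 7, SIRT1intKO 6 h replicate 2 or 3 and WT 6 h replicate 6.

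The named interaction genes with higher gains in SIRT1intKO than in WT liver were Ifi205, an interferon-inducible gene, Mmp12 and Ms4a6c, a gene of macrophages. Ifi205 (ENSMUSG00000054203) was at 0.577, 0.563, 0.252, 1.09 and 0.479 CPM at 6 h and between 0.798 and 19.4 CPM at 24 h, with a median of 2.29, replicate 5 overlapping with 6 h. It rose by 2.91 on the log2 scale (adjusted p = 0.000776) while WT liver gave -1.86 (adjusted p = 0.0565), and the interaction of 4.77 (adjusted p = 0.0297) was lost without WT 24 h replicate 2 (adjusted p = 0.0729) or WT 6 h replicate 6 (0.0525). Aifm3 (ENSMUSG00000022763), a mitochondrial apoptosis-inducing factor family gene, was at 2.12, 1.55, 2.39, 1.76 and 1.38 CPM at 6 h and between 0.0381 and 0.723 CPM at 24 h, with a median of 0.266. It fell 5.33-fold without overlap (adjusted p = 8.16e-05), with an interaction of -2.57 (adjusted p = 0.0387). The interactions of Aifm3, Mmp12 and Ms4a6c lost their calls when single libraries of either genotype were left out, with an adjusted p of up to 0.0797, 0.0883 and 0.0806. All 6 lost their calls with only the 22 libraries after PHx in the fit.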

How the data were processed

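Liver RNA was measured by stranded mRNA sequencing. The deposited values are expected counts that the authors obtained with Salmon and STAR in the nf-core pipeline (GRCm39 in the submitters' processing notes; versions not given in the sources used here), with no normalization for depth or length. Of these values, 4.97% were not whole and were rounded. Groups came from the labels, and 1 column that matched no sample was not used. The table's symbols lack the letter x, so 1316 symbols (705 of tested genes) were restored through gene identifiers.

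Counts were analysed in R 4.3.3 with edgeR 4.0.16. TMM scaling and filterByExpr left 14980 of 78298 genes, and 1 quasi-likelihood model with a mean per genotype and time was fitted to all 34 libraries, since its groups then share 1 estimate of the spread. Contrasts were 24 h versus 6 h within genotype and their interaction. Adjusted p-values are Benjamini-Hochberg over all tested genes, and a call needs an adjusted p under 0.05 and a log2 fold change beyond 1. Marker sums of CPM were compared by two-sided exact permutation tests, adjusted over the marker lists. The scripts were tested on simulated counts. Depth was 15041590 to 23480492 counts per library compared, so values under 1 CPM rest on few reads, and counting error is only part of the spread.

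The members and lists, the marker lists included, were chosen with earlier results of these data known, so no pathway list is given a test of its own. Only the marker lists were tested, as sums and as averaged log2 levels, and their p-values carry this limit. Where the groups do not overlap, the exact test of the sums gives the smallest p it can (0.00253 before adjustment). Named genes are the 10 largest rises and 10 largest falls among called genes that have a proper symbol, average 5 CPM or more in the higher group and do not overlap, the genes marked as key and the most extreme called genes of each list, up to 3 interaction genes in each direction averaging 1 CPM or more, and Sirt1; genes that only repeat a list count were left out. Other called members are named to show what a count holds, and those outside the rule were chosen after their values were seen. Alternatives were DESeq2 1.42.0, other scalings, filters, thresholds and sets of libraries, a replicate block and leaving out each library. Some genes are not reported here.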

Additional observations from a re-analysis of the deposited data

Results flagged for a closer look

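A library was listed here when its gap to the nearest other library of its group exceeded Dixon's limit. Of 120 groups tested 28 were listed. The limit would list about 1 in 20 among independent groups of normally distributed values. These groups share libraries and CPM need not be normal, so the shares cannot be compared. SIRT1intKO 24 h replicate 2 was the highest of its group for Ccl2 (103.2 CPM), S100a8 (375.4), Cxcl10 (197.4), Mad2l1 (6.824), Ifi205 (19.44) and the summed neutrophil markers (982.6). SIRT1intKO 24 h replicate 5 stood apart for Mcm5 (7.086 CPM), Sds (240.7), Serpina6 (22.34), Ces1d (52.04), Onecut1 (5.584), Cyp8b1 (45.33) and Lifr (105.4), all above its group, and for Hmgcs1 (76.3), below it.

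Other SIRT1intKO 24 h libraries stood apart for Mmp12 (replicate 6, 6.75 CPM), Sox9 and Sirt1 (replicate 4, 44.07 and 13.5), Dbp (replicate 1, 26.67), the summed B cell markers (replicate 3, 4.201), the summed muscle markers (replicate 6, 12.85), the summed mesothelium and adipocyte markers (replicate 3, 38.61) and the count total (replicate 7, 23480492). At 6 h this held for Chil3 (replicate 3, 0.06289 CPM), Ereg (replicate 2, 0.8451), Glul and Car3 (replicate 4, 1120 and 1282), the summed monocyte markers (replicate 5, 37.97) and the summed mesothelium and adipocyte markers (replicate 1, 38.03).

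The named genes called by the interaction test, as the change from 6 h to 24 h in SIRT1intKO minus WT on the log2 scale, were Ifi205 (4.77), Mmp12 (3.879), Ms4a6c (2.932), Egr1 (-3.728), Aifm3 (-2.572) and Ier2 (-2.319). All 6 calls were lost with only the 22 libraries after PHx in the fit, with a replicate block and with glmTreat.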

How the results depend on the processing

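For SIRT1intKO liver, an adjusted p alone gave 4138 genes (1979 higher, 2159 lower), at least 10 counts in every library gave 720 (437 and 283) and glmTreat, which tests against the fold threshold, gave 261 (161 and 100). Leaving out each library gave 1321 to 1899 (843 to 1150 higher, 475 to 749 lower), DESeq2 gave 1698 and kept 1561 of the 1588, and no called gene changed sign. Fitting only the 22 libraries after PHx gave 1293, and fitting the groups compared alone gave 1216. For WT liver an adjusted p alone, at least 10 counts in every library and glmTreat gave 2468, 570 and 80. Fitting its 2 groups alone gave 406, and leaving out each library gave 661 to 1370. The interaction count of 50 became 87 with an adjusted p alone, 301 with DESeq2, 16 with every gene of at least 1 count, 30 with upper-quartile scaling, and 0 to 419 when each library was left out. It was 0 with glmTreat, with the 22 libraries after PHx and with the groups compared alone, where edgeR still gave 490, 2224 and 2224 genes at an unadjusted p under 0.05. Of 102 named genes called in SIRT1intKO liver, 68 stayed called whichever library was left out and 99 with DESeq2. For the summed B cell markers the log2 difference ranged from -1.16 to -0.842 when each library was left out, and the adjusted p passed 0.05 in most of these. Library size limits what can be said of genes under 1 CPM.

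Same-numbered libraries did not deviate together (correlation -0.077 to 0.098), so the numbers do not pair them. With a replicate block, 1291 genes were called in SIRT1intKO liver, 771 in WT liver and 0 in the interaction, with 2106 genes at an unadjusted p under 0.05, and 10 rather than 18 matrix genes rose.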
